A study of Mus musculus with 16 samples.

Results

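The hairpin against the 15-kDa selenoprotein (Sep15) was present in 8 of the 16 arrays of the series and absent from the other 8, and the mRNA difference between these sets of arrays is described here. The 8 arrays with the hairpin were the 4 labelled shSep15 and the 4 labelled shTR1/shSep15, and the 8 without it were the 4 of the empty vector control and the 4 labelled shTR1. Membership was read from the array titles and not from any signal. All arrays measured total RNA of CT26 cells, a murine colon carcinoma line from the colon of BALB/c mice, extracted with TRIzol and hybridised to Affymetrix Mouse 430 2.0 chips. Control cells carried the pU6-m3 plasmid without an insert, shSep15 cells the plasmid with the Sep15 hairpin, shTR1 cells the plasmid with the thioredoxin reductase 1 (TR1) hairpin, and shTR1/shSep15 cells both constructs. Vector, hygromycin selection and host cells were thus common to all 4 lines, controls included. Arrays of a line came from different mRNA samples. The study worked with several independent clones and more than 1 hairpin sequence per target, whereas the labels give 1 sequence for each hairpin and no clone. Which clone or culture an array came from is not given in the sources used here, so that p-values measure only the spread between these samples, which may be technical. The hairpin contrast rests on 4 lines, and what a line acquired while it was derived and what the hairpin did cannot be told apart between any pair of lines.

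Sep15, now named Selenof, is a selenocysteine-containing protein of the endoplasmic reticulum with a thioredoxin-like fold. It binds UDP-glucose:glycoprotein glucosyltransferase, the enzyme that recognises misfolded glycoproteins and returns them to the chaperones calnexin and calreticulin. TR1, encoded by Txnrd1, is a selenoenzyme of the cytosol that reduces thioredoxin with NADPH. Both proteins are made with selenocysteine, and both have been studied for their part in the growth of cancer cells. A short hairpin RNA is cut by the cell into a guide strand that pairs with a matching mRNA and leads to its cleavage. The study made the 4 lines to ask what either protein, or both together, does in these cells. Setting all arrays with the Sep15 hairpin against all arrays without it asks which transcripts followed that hairpin whatever the state of TR1.

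The sequences that set the arrays apart are the target sites of both hairpins, read from the labels and written 5′ to 3′ as on the mRNA. Capitals mark the 7 bases that would face positions 2 to 8 of the guide, its seed, if the guide began opposite the last base of the site, which no source states.
Sep15 target: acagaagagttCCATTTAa
TR1 target: atcgctctgacaagCTTATTAg
The Sep15 site is 19 bases long with 31.6% G and C, and the TR1 site 22 bases with 40.9%. Each hairpin was carried in 8 arrays, 4 of which carried both. Under that reading, 0 of the 1679 mature mouse miRNAs in the RefSeq table share either seed.

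Selenof, the target, fell in both lines with the hairpin. Its log2 signal in the control arrays was 11.56, 10.78, 11.57 and 11.42, and in the shTR1 arrays it was 11.57, 11.73, 11.72 and 12.36. In the shSep15 arrays it was 8.02, 8.06, 8.29 and 8.15, and in the shTR1/shSep15 arrays 7.86, 7.34, 7.77 and 7.66. All 8 arrays with the hairpin lay below all 8 arrays without it, and no array went against its label for this gene. The main effect of the hairpin, which is the mean of its differences without and with the TR1 hairpin, was −3.69 (SE 0.14, limma adjusted p = 3.3e-09). Shuffling the labels among the 8 arrays of each TR1 status gave an exact two-sided permutation p of 0.000408, the smallest that the 4900 arrangements allow. The fall was 3.20 on the log2 scale between shSep15 and control and 4.19 between shTR1/shSep15 and shTR1, and the difference between these falls did not pass the test (interaction −0.99, limma adjusted p = 0.0719). A dimmer Selenof probe set, with a mean signal of 3.57, had a main effect of 0.02 and did not follow the hairpin.

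Txnrd1, the target of the other hairpin, checks the arrays over which the contrast averages. Its log2 signal was 10.39, 9.45, 9.90 and 10.10 in control arrays and 9.86, 10.62, 9.54 and 9.66 in shSep15 arrays. In the arrays labelled shTR1 it was 7.85, 10.57, 7.89 and 9.71, and in the shTR1/shSep15 arrays 7.60, 7.18, 7.73 and 7.91. At this probe set replicates 2 and 4 labelled shTR1 had as much Txnrd1 signal as control arrays, against their label. Their Selenof signal was that of arrays without the Sep15 hairpin. At dimmer Txnrd1 probe sets (means 5.33 and 3.47) they read 5.24 and 5.58, and 3.56 and 3.48. Control arrays there ran from 5.51 to 6.58 and from 3.54 to 4.09. In shTR1 replicates 1 and 3 the values were 4.62 and 4.76, and 3.42 and 3.08. Replicates 2 and 4 were kept for the main values, and counts, gene sets and genes that moved with them are also given without them. Txnrd1 had a Sep15-hairpin main effect of −0.72 (limma adjusted p = 0.723, exact permutation p = 0.113), and of −0.15 without these arrays. The plot of both targets shows every array.

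**Figure D1:**
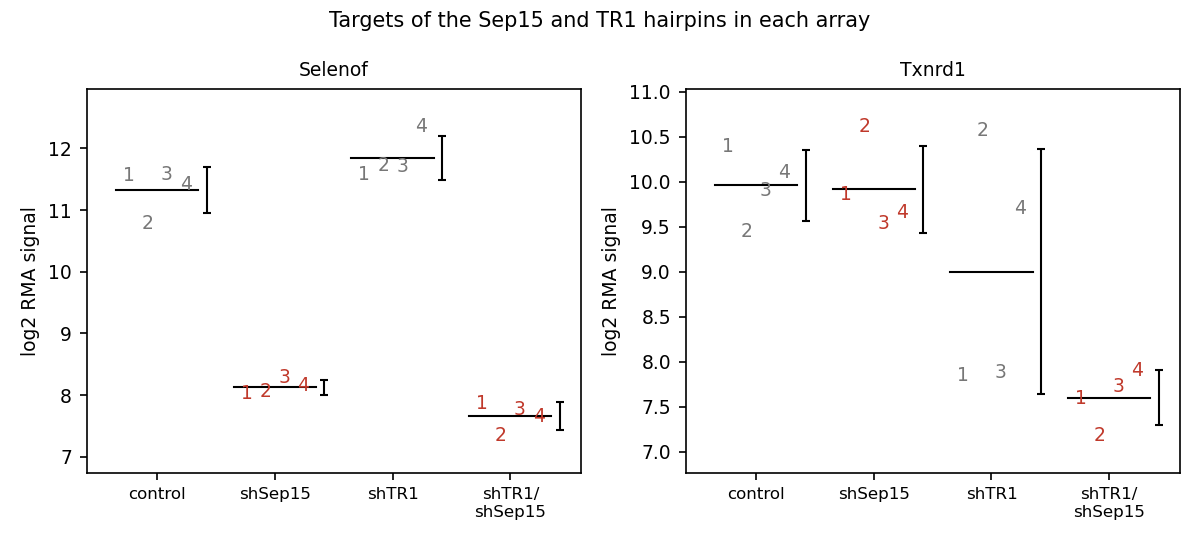
Log2 RMA signal of Selenof (left) and Txnrd1 (right) in each array of the 4 lines. Digits are replicate numbers, red with and grey without the Sep15 hairpin, horizontal lines are the means of 4 arrays and vertical bars ± 1 SD. Selenof separates the 8 red from the 8 grey arrays, whereas Txnrd1 in shTR1 replicates 2 and 4 (10.57 and 9.71) lies among the control arrays.

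No marker of another cell type passed the main-effect test. Of 5 mesenchymal markers 4 had a mean above the median of all probe-set means (4.53), with Vim, an intermediate filament protein, at 12.85. Of 10 epithelial and colon markers 6 did, Epcam among them at 5.93, but Cdh1, the epithelial cadherin, was at 2.51, below that median. The keratins Krt18 (−1.91) and Krt20 (−1.31) had the largest main effects of the epithelial list, with limma adjusted p-values of 0.152 and 0.171. Of 7 leukocyte markers measured 4 lay above it, Cd3e (5.40), Csf1r (5.54), Lyz2 (5.44) and Cd68 (6.40), whereas Ptprc, the pan-leukocyte marker, was at 2.76. Cd68, of macrophages, ran from 4.38 to 9.06 between arrays with a main effect of −0.83 (limma adjusted p = 0.765). Of 5 endothelial markers 1 lay above it, Kdr at 5.61, and Pecam1 was at 3.21. The mean signal over the leukocyte list ran from 4.59 to 5.15 in arrays without and from 4.60 to 5.22 in arrays with the hairpin, and that over the endothelial list from 3.84 to 4.21 and from 3.86 to 4.14. Array medians ran from 4.45 to 4.58, and spike-in signals overlapped between the arrays with (9.23 to 10.2) and without the hairpin (8.95 to 10.4).

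Across the transcriptome few probe sets were called in the main effect of the hairpin. Of 45037 probe sets tested, 38 had a limma adjusted p under 0.05 in the main effect, 0.0844% of all. They were 19 higher and 19 lower with the hairpin (0.0422% each), and 3184 had an unadjusted p under 0.05. The comparison of shSep15 with control alone called 885 (1.97%), 619 higher (1.37%) and 266 lower (0.591%), and that of shTR1/shSep15 with shTR1 called 33 (0.0733%), 9 higher (0.02%) and 24 lower (0.0533%). The test of the difference between these comparisons, the interaction of both hairpins, called 1282 (2.85%), 331 positive (0.735%) and 951 negative (2.11%). Without shTR1 replicates 2 and 4, the comparison with the TR1 hairpin called 12 and the interaction 519, while the main effect called 49, of which 24 were among the 38. With 1 array left out, the comparison with the TR1 hairpin ran from 5 calls (without shTR1/shSep15 replicate 4) to 250 (without shTR1 replicate 1), and the interaction from 656 (without shSep15 replicate 3) to 2340 (without control replicate 2). On arrays from whole cultures, a lower signal can come from fewer cells with a transcript or from less of it per cell, and these cannot be told apart.

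The 2 comparisons share no arrays, and their differences ran more often in opposite directions than in the same one. Over all probe sets tested the Pearson correlation of the log2 differences was −0.37 and the Spearman correlation −0.30, given as a description since probe sets of one array are not independent. Only 37.7% of probe sets had the same sign in both. Among the 1280 with an unadjusted p under 0.05 in each comparison, 149 moved the same way (66 higher, 83 lower) and 1131 opposite ways. Of the latter, 830 were higher in shSep15 than in control and lower in shTR1/shSep15 than in shTR1. Probe sets whose arrays did not overlap in either comparison numbered 61 in the same direction (0.135% of those tested) and 400 in opposite directions (0.888%). Without shTR1 replicates 2 and 4 the correlations were −0.23 and −0.24, 40.4% had the same sign, and of 863 past the unadjusted threshold in each comparison 138 moved the same way and 725 opposite ways. With only 2 arrays left in that line, 194 did not overlap in the same direction (0.431%) and 657 in opposite directions (1.46%). The plot of one comparison against the other shows the called probe sets mostly along the horizontal axis.

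**Figure D2:**
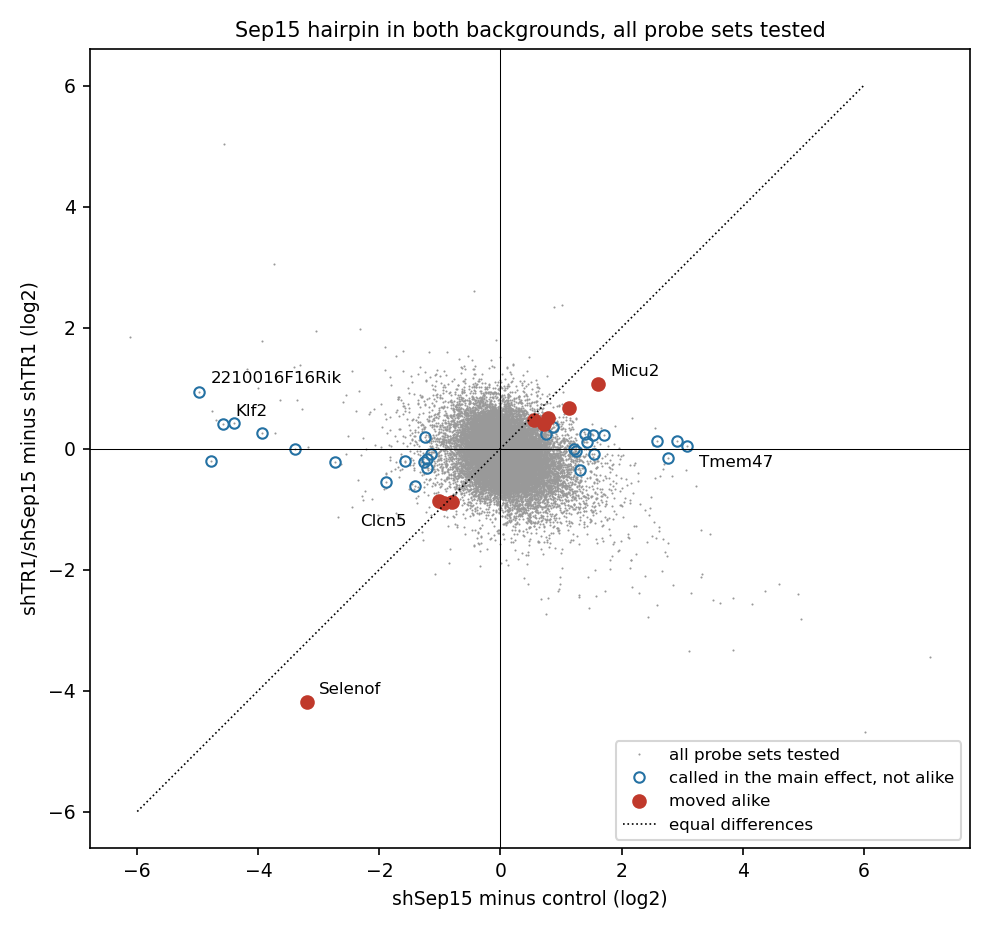
Log2 difference of shTR1/shSep15 minus shTR1 (vertical) against shSep15 minus control (horizontal) for the 45037 probe sets tested (grey). Of the 38 called in the main effect, the 9 that moved alike (red) lie near the dotted line of equal differences, with Selenof far below the rest, and most of the other 29 (blue circles) have a difference near 0 on the vertical axis.

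Transcripts that moved alike were therefore sought by a rule of sign and size. They had to be called in the main effect, to have the same sign and an unadjusted limma p under 0.05 in both comparisons, and to have a smaller difference of at least 0.5 of the larger. Of the 38 probe sets called, 9 met it (0.02% of those tested), 4 lower and 5 higher. None of the 9 was among those called in the interaction. In all 9 the 4 arrays with the hairpin did not overlap the 4 without it in either comparison. Of all probe sets tested, 0.135% were apart in this way in the same direction. The rule itself favours a small interaction and separate arrays, so that neither is further support for likeness. Apart from Selenof the lower ones were Clcn5, Utp23 and Slc35a2. The higher ones were Micu2, Ahcyl1, Slc22a29 and 2 probe sets without a name of their own. A gene is described by the probe set with the highest mean among those that carry its symbol alone. Clcn5 and Utp23 met the rule at other probe sets than that one, and were chosen for description after their values were seen.

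Clcn5, a chloride and proton exchanger of endosomes, was lower with the hairpin in both backgrounds. Its log2 signal was 7.96, 8.06, 8.23 and 7.74 in control against 6.89, 6.53, 7.35 and 7.18 in shSep15 arrays. It was 8.62, 8.62, 8.35 and 8.83 in shTR1 against 7.89, 7.37, 7.90 and 7.78 in shTR1/shSep15 arrays. Within each background no array with the hairpin reached the lowest without it, although 3 of the 4 shTR1/shSep15 arrays lay above control replicate 4. The main effect was −0.94 (SE 0.13, limma adjusted p = 0.00981), made up of −1.01 and −0.87. All 4 probe sets of Clcn5 had negative main effects. The brightest had −0.41 from −0.56 and −0.27, was not called (limma adjusted p = 0.163) and did not move alike. The call and likeness of the probe set described here held with any 1 of the 16 arrays left out.

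Slc35a2 carries UDP-galactose into the Golgi for the galactosylation of glycans. In control arrays its signal was 7.28, 8.03, 7.43 and 7.21 and in shSep15 arrays 6.67, 6.38, 6.88 and 6.84. In shTR1 arrays it was 7.94, 7.37, 7.56 and 7.90 and in shTR1/shSep15 arrays 7.0, 6.37, 7.06 and 6.81. All 8 arrays with the hairpin lay below all 8 without it, and the difference was of nearly the same size in both (−0.80 and −0.88). The main effect of −0.84 had a limma adjusted p of 0.0455, just under the threshold. Of the other 5 probe sets of Slc35a2, a dimmer one was close behind (−0.45, limma adjusted p = 0.0609), while another had a main effect of 0.07 and another of 0.00, so that the probe sets differ in sign. The call held only without control replicate 2, control replicate 4 or shTR1 replicate 2. It was lost without any other array, with adjusted p-values up to 0.11, and without shTR1 replicates 2 and 4 together (0.0843).

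Utp23, a factor in the processing of small-subunit ribosomal RNA, had 4 probe sets, all with a negative main effect. The one that moved alike read 7.32, 7.36, 7.36 and 6.57 in control and 6.09, 6.07, 6.39 and 6.29 in shSep15 arrays. In shTR1 arrays it read 7.65, 7.40, 7.60 and 7.80 and in shTR1/shSep15 arrays 6.77, 6.06, 7.01 and 6.99. Control replicate 4 and shTR1/shSep15 replicate 2 lay apart from their lines, yet the arrays of each background did not overlap. The main effect was −0.92 (SE 0.15, limma adjusted p = 0.0322), with −0.94 and −0.90 in the 2 comparisons. The brightest probe set was called as well, at −0.74, but with −1.26 and −0.22 it did not move alike. The alike call survived in 7 of the 16 fits that left out 1 array (control replicates 2 and 4, shTR1 replicates 1 and 2, shTR1/shSep15 replicates 2 to 4), and in the others the adjusted p rose to at most 0.0827. It was also lost without shTR1 replicates 2 and 4 together (0.0873).

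Micu2, which gates calcium entry through the mitochondrial uniporter, had the largest rise among the transcripts that moved alike. Its signal was 6.77, 5.20, 5.60 and 6.55 in control arrays and 8.10, 7.58, 7.45 and 7.44 in shSep15 arrays. It was 6.04, 6.75, 5.87 and 6.75 in shTR1 arrays and 7.47, 7.15, 7.60 and 7.47 in shTR1/shSep15 arrays. All 8 arrays with the hairpin lay above all 8 arrays without it, and the spread was wider without it. The main effect was 1.34 (SE 0.22, limma adjusted p = 0.0362), from 1.61 without and 1.07 with the TR1 hairpin. Micu2 is represented by 1 probe set. The call held without control replicates 1, 2 or 4 or shTR1 replicates 2 or 4, and without the latter together (0.0313). Leaving out any other array gave adjusted p-values of up to 0.0982.

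Ahcyl1 encodes a relative of S-adenosylhomocysteine hydrolase that binds the inositol trisphosphate receptor of the endoplasmic reticulum. It read 10.02, 9.61, 10.12 and 10.12 in control and 10.56, 10.78, 10.72 and 10.68 in shSep15 arrays. It read 9.81, 10.26, 9.81 and 10.15 in shTR1 and 10.26, 10.46, 10.29 and 10.61 in shTR1/shSep15 arrays, where shTR1 replicate 2 came within 0.01 of the lowest array with the hairpin. The main effect was 0.56 (SE 0.10, limma adjusted p = 0.0472), and the rise with the TR1 hairpin (0.40) was smaller than without it (0.72). Its other 2 probe sets had main effects of 0.69 and 0.59. The call held without control replicate 2, control replicate 4, shTR1 replicate 2, or shTR1 replicates 2 and 4 together (0.0272), and was lost without any other array, with adjusted p-values up to 0.117.

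Slc22a29, a member of the organic ion transporter family, was dim on these arrays, with a mean of 3.89. It read 3.99, 3.57, 3.53 and 3.70 in control, 4.29, 4.39, 4.40 and 4.82 in shSep15, 3.47, 3.67, 3.22 and 3.40 in shTR1 and 3.87, 3.73, 4.04 and 4.13 in shTR1/shSep15 arrays. The arrays did not overlap within a background, but those of shTR1/shSep15 lay near control replicate 1. The main effect was 0.64 (limma adjusted p = 0.0272), and the call ended in 7 of the 16 fits with 1 array left out (control 3, shSep15 3, shTR1 3 and 4, and shTR1/shSep15 1, 3 and 4), where the adjusted p reached at most 0.083. Probe set 1451635_at, which carries the symbols of more than 1 transporter of this family and is therefore not assigned to a gene, rose by 0.90 (1.13 and 0.67, limma adjusted p = 0.0362). It may share transcripts with the probe set of Slc22a29, so that the 2 probe sets are not independent. Its call held in 4 of the 16 fits with 1 array left out (control replicates 1, 2 and 4 and shTR1 replicate 1), the adjusted p reached 0.097 in the others, and without shTR1 replicates 2 and 4 together it was 0.123.

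Probe set 1435294_at carries no symbol here. Its signal was 4.30, 4.41, 4.34 and 4.40 in control and 5.05, 4.83, 5.07 and 4.73 in shSep15 arrays. In shTR1 arrays it was 4.05, 4.22, 4.07 and 4.32, and in shTR1/shSep15 arrays 4.67, 4.78, 4.45 and 4.64. All arrays with the hairpin were higher than all arrays without it. The main effect of 0.52 (limma adjusted p = 0.00981) came from 0.56 and 0.47, and the call held with any 1 array left out. The plot of the 9 probe sets sets these values side by side.

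**Figure D3:**
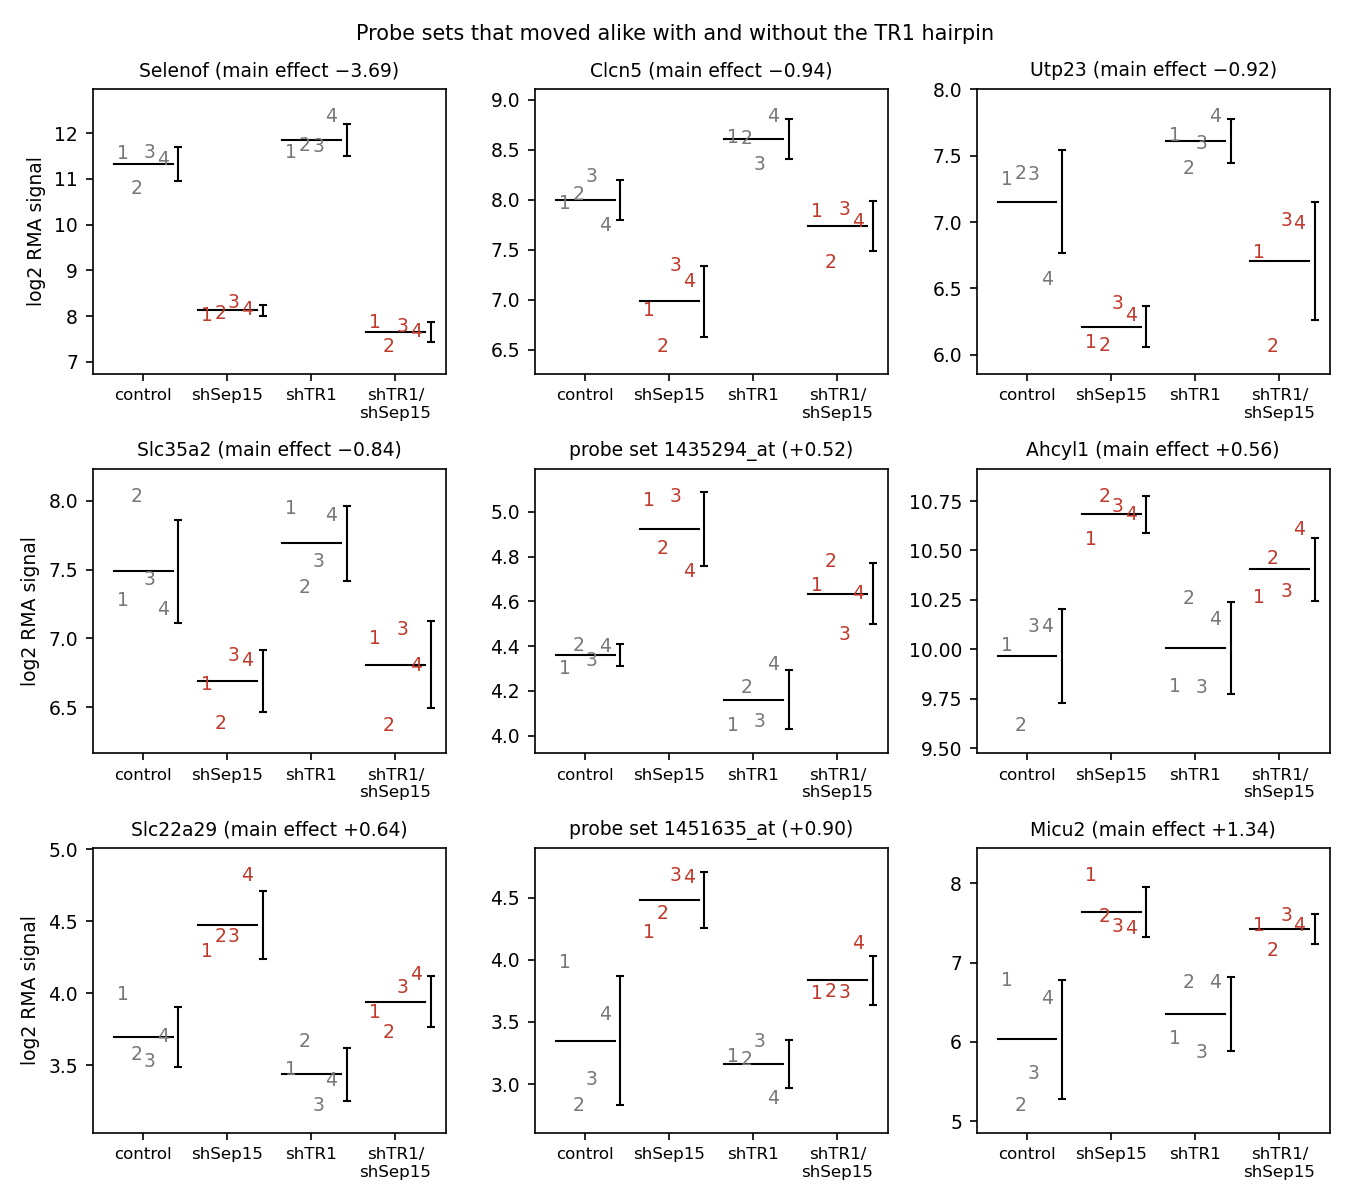
Log2 RMA signal in each array for the 9 probe sets that moved alike, 1 panel each, with the main effect in the title. Digits are replicate numbers (red with, grey without the Sep15 hairpin), horizontal lines the means of 4 arrays and bars ± 1 SD. In every panel the red arrays of a background lie on 1 side of its grey arrays, and in those of Selenof, Slc35a2, Micu2, Ahcyl1 and probe set 1435294_at all 8 red arrays lie on 1 side of all 8 grey ones.

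The other 29 probe sets called in the main effect did not move alike. In 36 of the 38 called the difference was larger between shSep15 and control than between shTR1/shSep15 and shTR1, 10 had opposite signs in these comparisons, and 25 were called in the interaction too. All 38 had an unadjusted p under 0.05 without the TR1 hairpin and 15 of them with it. Among genes called at their brightest probe set, the largest main effects were those of Tmem47, Myoz2 and Bcar3 among those higher, and of Klf2, 2210016F16Rik and Dppa2 among those lower. Further genes of this set are named after their values were seen, some of them at a dimmer probe set, as is said there.

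Klf2, a Krüppel-like transcription factor that keeps cells quiescent, read 8.65, 10.97, 8.37 and 8.52 in control arrays against 4.41, 4.62, 4.60 and 4.55 in shSep15 arrays. In shTR1 arrays it read 6.78, 5.79, 7.74 and 6.68, and in shTR1/shSep15 arrays 7.37, 7.02, 7.09 and 7.16. It was thus lowest in shSep15 arrays, with no overlap with those of any other line, and its main effect of −2.09 (limma adjusted p = 0.0329) averaged −4.58 and 0.41. The second of these turned to −0.10 without shTR1 replicates 2 and 4, and the main effect was −2.34 (0.0313). The interaction of 4.99 had a limma adjusted p of 0.00205. The main-effect call held only without 1 of the 4 control arrays or without shTR1 replicates 1 or 2, and leaving out any other array raised the adjusted p to at most 0.0928. Dppa2, a chromatin factor of early embryos and pluripotent cells, was called at both its probe sets, with −1.99 at the brighter. Its mean there was 8.15 ± 0.54 (SD, n = 4) in control and 3.74 ± 0.36 in shSep15, but also 3.51 ± 0.57 in shTR1 and 3.94 ± 1.08 in shTR1/shSep15 arrays. The control line stood apart from the other 3. For Dppa2 the brighter probe set lost its call without shTR1 replicates 2 and 4 together (0.0873) and in 10 of the 16 fits with 1 array left out, and it held without control 2 or 4, shTR1 1, 2 or 3, or shTR1/shSep15 4.

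2210016F16Rik, which has no role assigned here, had a mean of 8.99 ± 0.53 (SD, n = 4) in control, 4.01 ± 0.22 in shSep15, 8.59 ± 0.82 in shTR1 and 9.53 ± 0.08 in shTR1/shSep15 arrays. Its main effect of −2.02 (limma adjusted p = 0.00316) averaged −4.99 and 0.94, which have opposite signs. Tmem47, a membrane protein of cell junctions, was called at both its probe sets and rose in shSep15 arrays alone, to 5.50 ± 0.76 against 2.43 ± 0.04 in control, 2.39 ± 0.08 in shTR1 and 2.43 ± 0.11 in shTR1/shSep15. Its main effect was 1.56, from 3.07 and 0.04. Myoz2, a sarcomere protein that binds calcineurin, had 1.36 from 2.59 and 0.12, and Bcar3, an adaptor of integrin signalling, 0.82 from 1.40 and 0.24. Leaving out shTR1 replicates 2 and 4 gave differences with the TR1 hairpin of 0.42 for Myoz2 and 0.34 for Bcar3, and both kept their main-effect calls. Bcar3 lost its call without shTR1/shSep15 replicates 1, 2 or 3, and Myoz2 without shSep15 3 or 4, shTR1 3 or any of the shTR1/shSep15 arrays, with adjusted p-values of at most 0.0604 and 0.0692.

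Some of the 29 kept the same sign but missed the rule on size. Among them, the smaller difference was 0.289 (Mapk12), 0.319 (Abhd16a), 0.411 (Ampd2) and 0.438 (Tmlhe) of the larger. Mapk12, a stress-activated kinase of the p38 family, was at −1.22 (limma adjusted p = 0.00115) from −1.89 and −0.55. It was called in the interaction too (1.34, limma adjusted p = 0.01). Its arrays did not overlap in either background, but its second probe set was at 0.01. Tmlhe, the first enzyme of carnitine synthesis, was at −1.01 from −1.41 and −0.62 at a dim probe set. Ampd2, an AMP deaminase, was at 0.61 from 0.86 and 0.35, and its second probe set at 0.60. Abhd16a, a lipase of phosphatidylserine, was at 0.49 from 0.75 and 0.24 at a dimmer probe set, while its brightest had 0.41 and was not called (limma adjusted p = 0.505). In contrast Sec22b, a SNARE protein of transport between the endoplasmic reticulum and the Golgi, rose by 1.31 in shSep15 and fell by 0.36 in shTR1/shSep15, both beyond the overlap of the arrays. Ube2a, a ubiquitin-conjugating enzyme, fell by 1.25 in shSep15 and was at 0.18 in the other comparison. Spint2, an inhibitor of serine proteases, was at 1.51 from 2.91 and 0.12 at a dimmer probe set, while its brightest had 0.52 and was not called (limma adjusted p = 0.108). Unnamed probe sets 1416295_a_at and 1416296_at (−2.49 and −1.70) had the pattern of Dppa2, high in the control line and low in the other 3. With 1 array left out, the call of Mapk12, Ube2a and Spint2 held in all 16 fits, that of Abhd16a in 10, that of Tmlhe in 5, and those of Ampd2 and Sec22b in 4 each, with adjusted p-values of at most 0.12 where it was lost. Without shTR1 replicates 2 and 4 together Abhd16a (0.0635), Tmlhe (0.0629), Ampd2 (0.123) and Sec22b (0.0953) were not called. The heat map shows all 38.

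**Figure D4:**
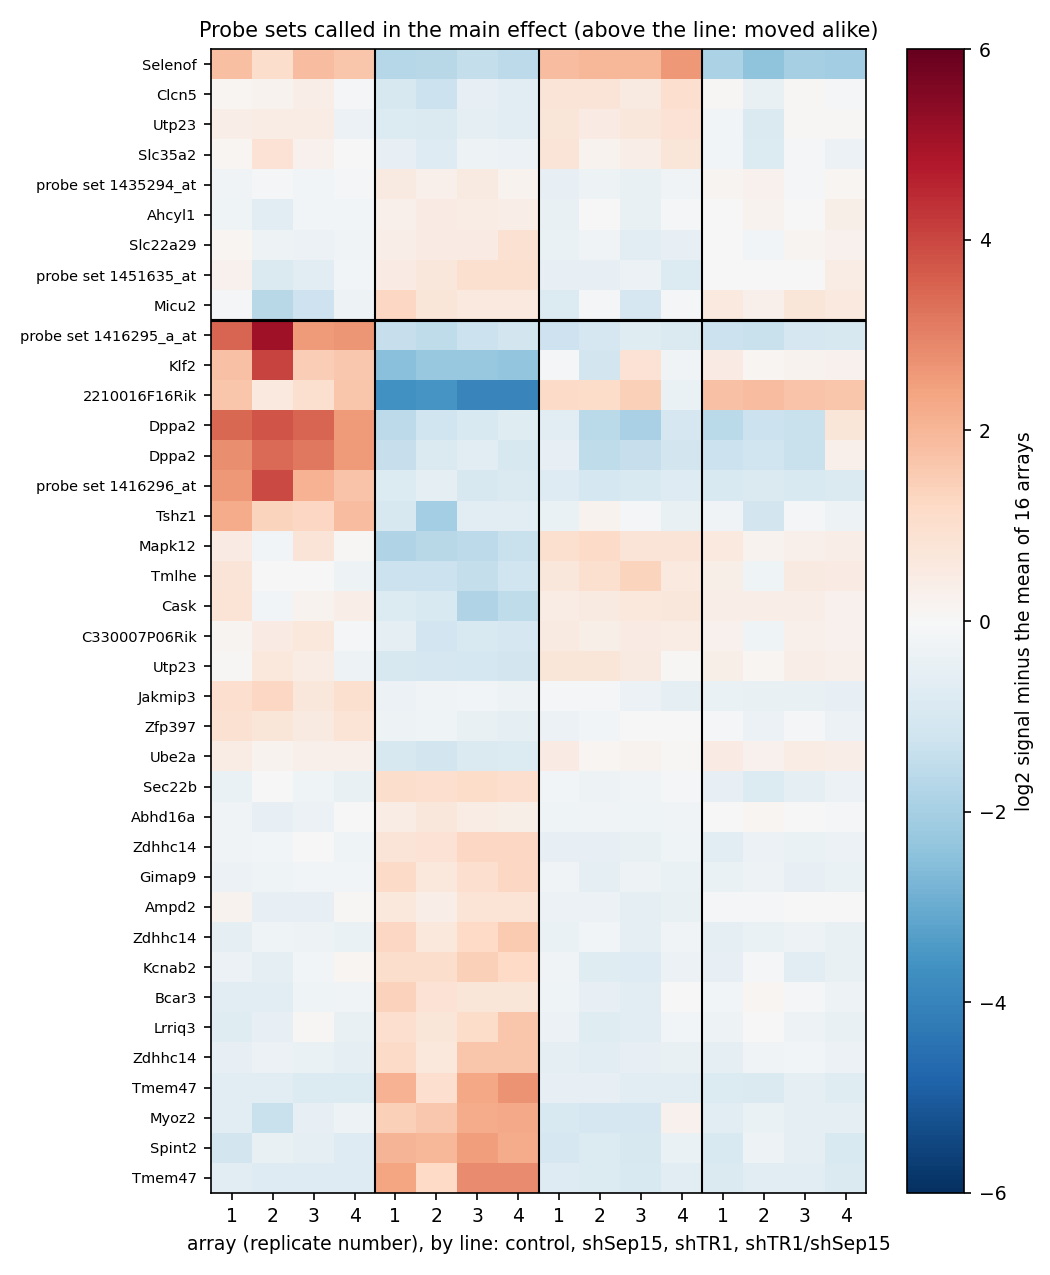
Log2 signal of the 38 probe sets called in the main effect, as the difference from the mean of 16 arrays (blue below, red above), with arrays in columns by line and replicate number. Above the line are the 9 probe sets that moved alike, where shSep15 is shifted from control the same way as shTR1/shSep15 from shTR1. Below it the shSep15 block stands apart from the other 3 in most rows, or the control block does (Dppa2, Tshz1, Jakmip3, Zfp397, probe sets 1416295_a_at and 1416296_at).

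The threshold fell in a dense stretch of values. Just inside it lay Ahcyl1 (limma adjusted p = 0.0472), Slc35a2 (0.0455), and Ampd2 and the brightest probe set of Utp23 (0.0498 each). Just outside, 14 probe sets met the sign and size rule with adjusted p-values from 0.0504 to 0.0818. They included Amigo1 (0.43), a neuronal adhesion protein, both listed probe sets of Wwc1 (−1.13 and −1.11), a scaffold of Hippo signalling, Necap2 (−0.99), an endocytic adaptor, Slc25a20 (−0.57), the mitochondrial carnitine and acylcarnitine carrier, and Dcxr (0.37), a carbonyl reductase. The number that moved alike depended on the arrays kept, from 3 to 25 with 1 array left out, and was 8 without shTR1 replicates 2 and 4 together, of which 6 were among the 9 (Selenof, Clcn5, Slc22a29, Micu2, Ahcyl1 and probe set 1435294_at).

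Pathways near Sep15 had no member that passed in the main effect other than Selenof itself. Among 18193 genes, each at its chosen probe set, 21 were called (0.115%), 10 higher (0.055%) and 11 lower (0.0605%). At the unadjusted threshold, 4.63% of genes were higher and 3.09% lower. Of the 18 measured genes of the calnexin and glucosyltransferase cycle, 0 were called, and 3 were higher at an unadjusted p under 0.05 and 0 lower. The median log2 difference was 0.14, against 0.02 for all genes, with 0.22 without and −0.07 with the TR1 hairpin. The largest was Ganab, the glucosidase that trims glucose from new glycans, at 0.90 (limma adjusted p = 0.291), which was 1.97 in shSep15 and −0.18 in the other comparison. Of 26 genes of oxidative folding in the endoplasmic reticulum 0 were called and 4 were higher at the unadjusted threshold. These were Erp44 (0.55), which retains thiol-linked proteins, Dnajc10 (0.48), a disulfide reductase, Pdia6 (0.36), a disulfide isomerase, and Prdx4 (0.53), a peroxiredoxin of the endoplasmic reticulum, with limma adjusted p-values from 0.171 to 0.654. The list median was 0.13, with 0.26 and 0.07. Of 27 genes of the unfolded protein response none passed even the unadjusted threshold, and the median was −0.04.

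Selenoproteins as a group did not follow Selenof. Of 22 others measured, 0 were called, 4 were higher at an unadjusted p under 0.05 and 0 lower, and the median was 0.06. Selenop, the selenium carrier of plasma, stood just outside the threshold at 0.99 (limma adjusted p = 0.0521), but this came from 1.96 without and 0.01 with the TR1 hairpin. Selenot, of the endoplasmic reticulum, had 0.57 (1.21 and −0.07). Selenom, the closest relative of Sep15, had 0.65, with 0.64 and 0.65 in the 2 comparisons, and did not pass (limma adjusted p = 0.469). The second of these was 0.07 without shTR1 replicates 2 and 4. Of the 10 genes measured for making and inserting selenocysteine 0 were called, 0 were higher and 1 lower at the unadjusted threshold. The lists of cytosolic and mitochondrial thiol redox genes (17 measured) and Nrf2 targets (19 measured) held 0 called genes each, and Nfe2l2, which encodes Nrf2, had −0.12.

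Interferon-stimulated genes had opposite differences in the 2 comparisons. Of the 41 measured, 40 were higher in shSep15 than in control, and all 41 were lower in shTR1/shSep15 than in shTR1, with medians of 1.49 and −1.42. Their main effects therefore stood near 0, with a median of 0.16 and 0 called. Usp18, which removes the ubiquitin-like protein Isg15 and damps interferon signalling, had 6.03 and −4.68 (interaction −10.71, limma adjusted p = 0.00504). The 11 interferon-γ-inducible GTPases showed the same signs in all members, with medians of 3.14 and −2.35. Beside these values, the mean over the interferon-stimulated list was 8.90 in shTR1 replicate 4 and 7.69 in replicate 2, against 6.27 and 6.22 in replicates 1 and 3, and 6.55 in shSep15 replicate 1 against 8.38 to 8.93 in the others of its line. In control replicate 2 it was 7.59, against 6.12, 6.21 and 5.94 in the other control arrays. Without shTR1 replicates 2 and 4, the second comparison had a value of −1.90 for Usp18 and a median of −0.33 over the interferon-stimulated list, with 32 of 41 lower, and of −0.36 over the GTPases, with 8 of 11 lower, and the median main effects rose to 0.62 and 1.18.

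Other lists gave a few genes. In G2 and mitosis (28 measured) 25 main effects were positive, with a median of 0.32, but the medians were −0.09 without and 0.72 with the TR1 hairpin, and 0 were called. The mean signal over this list was split within the lines without the Sep15 hairpin, with 9.39, 7.49, 7.80 and 9.21 in control and 7.77, 9.29, 8.82 and 8.13 in shTR1 arrays. It ran from 8.21 to 8.63 in shSep15 and from 8.99 to 9.21 in shTR1/shSep15 arrays, and the part of this split in the list's medians was not tested. Hypoxia and glycolysis (21 measured) had 7 genes higher at the unadjusted threshold and 0 lower, among them Pdk1 (0.98), Bnip3 (0.75), Pkm (0.64) and Aldoa (0.52). The medians of this list were 0.18 and 0.34, and none was called (the lowest limma adjusted p, of Pdk1, was 0.461). Of the 27 immediate-early and Krüppel-like factors, 22 had negative main effects (median −0.41), Klf2 was called, and Rhob, a small GTPase, was next at −1.58 (limma adjusted p = 0.242), low in shSep15 cells only (−3.18 and 0.02). In all, the lists held 525 measured genes and 3 called ones, Selenof, Klf2 and Dppa2.

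Transcripts that the study had measured by PCR in these cells were chosen there with these lines in view and are no independent evidence. Of 19 measured here, 1 was called, Selenof. Afp, the fetal albumin-like protein, had −2.14 (limma adjusted p = 0.131) from −6.11 and 1.84. Casp6, an executioner caspase, had 0.62 from 1.38 and −0.14, and Tnc, a matrix glycoprotein, 1.08 from −0.44 and 2.61. Without shTR1 replicates 2 and 4 the second values were 1.24 for Afp, 0.19 for Casp6, which turned sign, and 1.72 for Tnc. Apc, the Wnt pathway suppressor, had −0.51 from −0.19 and −0.83, and Ccr1, a chemokine receptor, −0.56 from −0.28 and −0.84, both with the same sign in each comparison but limma adjusted p-values of 0.536 and 0.657. Gpx1 and Gpx2, glutathione peroxidases, had 0.01 each. Arhgef5, a guanine nucleotide exchange factor, had the lowest adjusted p of the named genes in the interaction (1.19e-11). It read 9.22 ± 0.38 (SD, n = 4) in control and 9.55 ± 0.21 in shTR1/shSep15, but 4.65 ± 0.18 in shSep15 and 4.52 ± 0.17 in shTR1 arrays, so that its main effect was 0.23 (limma adjusted p = 0.764).

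Genes beside Selenof on chromosome 3 did not fall with it. Among the 50 genes with a probe set that flank it, 25 on each side, 0 were called, 8 were higher at the unadjusted threshold and 0 lower. Over all 50, 36 main effects were positive (median 0.09). Of them, 35 were higher in shSep15 than in control (median 0.34) and 31 were lower in shTR1/shSep15 than in shTR1 (−0.08). A filter by the mean of all 16 arrays can pass a gene through the line where it is high. It passed interferon-inducible Gbp2, Gbp2b, Gbp3 and Gbp7, the last at 8.95 in shSep15 and 4.04 in control arrays. Of the 26 genes with a mean above the median of probe-set means, 25 had a positive main effect and 25 were higher in shSep15 than in control. In shTR1/shSep15, 20 of the 26 were lower than in shTR1. The medians were 0.38, 1.17 and −0.42. The last of these was −0.16 without shTR1 replicates 2 and 4, with 18 lower, and that of the main effect 0.57. Hs2st1, a heparan sulfate sulfotransferase next to Selenof, had 0.51 from 1.59 and −0.57, and Sh3glb1, an endophilin on the other side, 0.40 from 1.13 and −0.33. In the line with the single Sep15 hairpin the target thus fell while most of its neighbours were higher.

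This shift was not confined to the neighbours. Over the 556 bright genes of chromosome 3 (those above that median) the median main effect was 0.19, with 0.47 without and −0.05 with the TR1 hairpin (0.003 after quantile scaling, which turned the sign of the last), and 156 were higher and 7 lower at the unadjusted threshold. Over all 913 genes of this chromosome the medians were 0.07, 0.09 and 0.03, with 160 higher and 10 lower. Of the 11539 bright genes of all chromosomes, 727 were higher and 500 lower, and 6470 had a positive main effect. Windows of consecutive bright genes were followed along the chromosome, and the last 7 are described after their values were seen. There 112 of 136 genes had a positive main effect. These are bright genes only, and some, such as Gbp7, can pass the filter through the line where they are high. The same count over all genes of these windows was not made. The window medians ran from 0.24 to 0.69 for the main effect and from 0.73 to 1.29 in shSep15, but from −0.62 to −0.11 in the other comparison. Of the 7 called probe sets on chromosome 3, 6 were higher, those of Myoz2, Bcar3, Lrriq3, Sec22b, Ampd2 and Ahcyl1, and Selenof was lower. At chosen probe sets, 5 of the 913 genes of chromosome 3 were called higher, against 10 of all 18193 genes (0.055%). Lrriq3, Myoz2 and Bcar3 lay in those last windows. Lrriq3 was called at a dimmer probe set, while its brightest had 0.07 and was not called (limma adjusted p = 0.964).

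On the X chromosome the first 80 bright genes, chosen for description after their values were seen, had lower signals. Of these, 67 had a negative main effect and 76 were lower in shSep15 than in control, whereas 38 were lower and 42 higher in shTR1/shSep15 than in shTR1. Of the 11539 bright genes of all chromosomes, 5068 had a negative main effect and 5435 were lower in shSep15 than in control. The window medians of the main effect in this stretch of X were −0.40 to −0.32, against −0.07 to 0.14 in the 12 windows beyond. All 6 probe sets called lower on X lay in this stretch, those of Clcn5, Slc35a2, Tmlhe, Cask, C330007P06Rik and Ube2a, and the 2 called higher, both of Tmem47, lay outside it. The stretch was chosen on the same values, so the place of these calls in it is no separate result. At chosen probe sets, 3 of the 617 genes of X were called lower, against 11 of all 18193 genes (0.0605%). Clcn5, Tmlhe and Cask were called at a probe set other than their brightest. That of Cask had −0.49 and was not called (limma adjusted p = 0.349). Clcn5 and Slc35a2, which were also lower with the TR1 hairpin (by 0.87 and 0.88), thus lay in a window whose median in that comparison was −0.06. Of 120 bright genes in a stretch of chromosome 18, chosen in the same way, 103 had a negative main effect as well, and on chromosome 4 the median of 715 bright genes was 0.11, with 0.23 and 0.07. The part of these regional shifts in the calls of single genes was not tested, nor was the part of the filter for bright genes in the shifts. The windows are drawn for these 4 chromosomes.

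**Figure D5:**
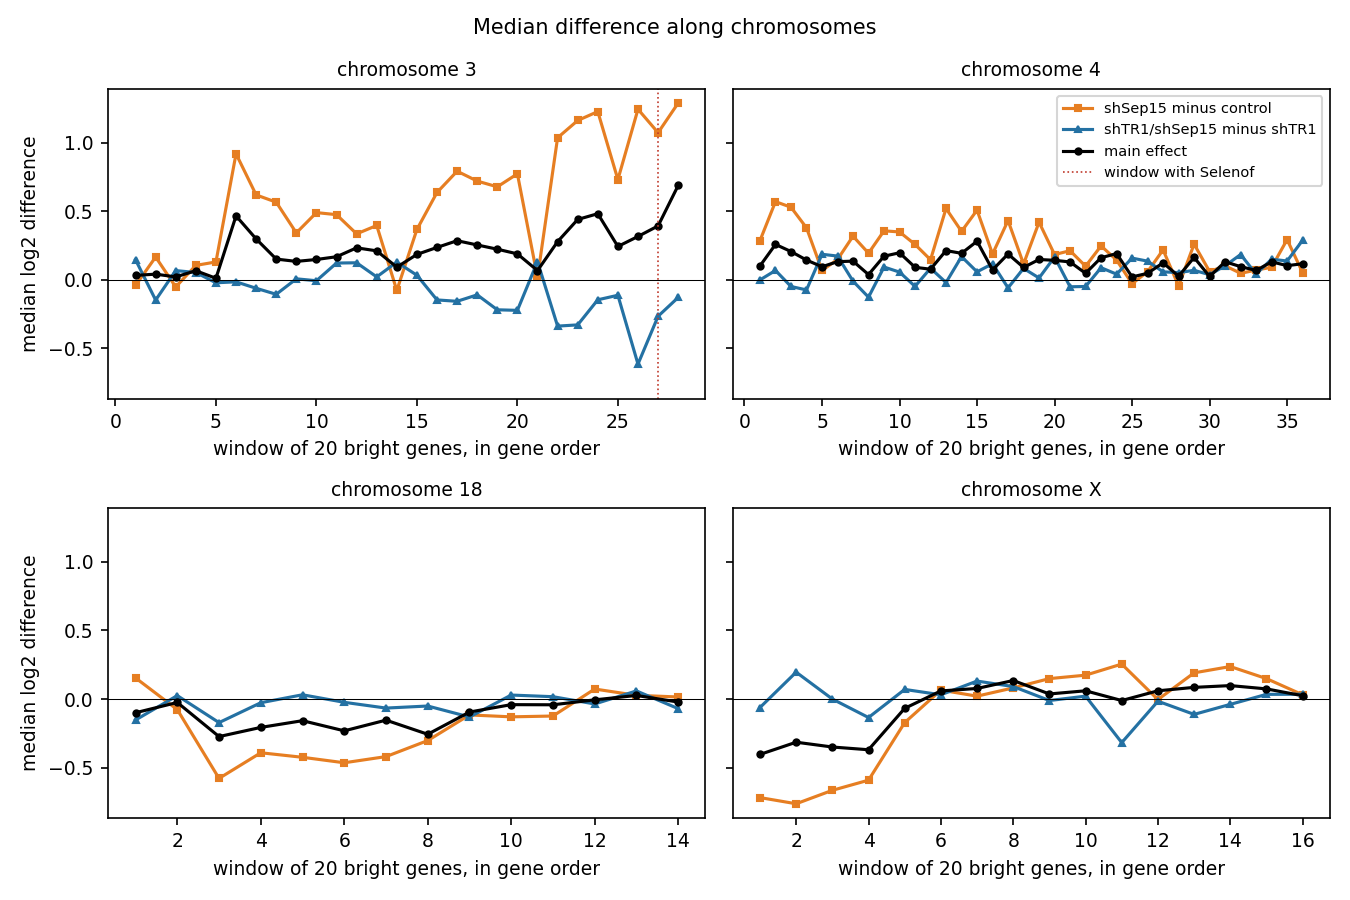
Median log2 difference in windows of 20 consecutive bright genes along chromosomes 3, 4, 18 and X, for shSep15 minus control (orange squares), shTR1/shSep15 minus shTR1 (blue triangles) and the main effect (black circles). On chromosome 3 the orange line rises above 1 in the last windows, which hold Selenof (dotted line), while the blue line lies below 0, and in the first 4 windows of X the orange line is near −0.7.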

How the data were processed

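RNA of 4 stably transfected CT26 lines was measured on 16 Affymetrix Mouse 430 2.0 arrays, 4 per line. The log2 signals used here are the values that the authors deposited for each array, made with RMA (background correction, quantile normalization and probe-set summary) per the submitters' processing notes, whose version is not given in the sources used here. RMA sets all arrays to 1 distribution of signals, so that a shift common to all transcripts would not be seen. Depth has no counterpart on arrays, and the number of arrays limits the precision.

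From the 45101 probe sets, 64 AFFX controls were left out and 45037 tested, with no missing values. Symbols came from the platform annotation: 34945 probe sets carried 1 symbol, 932 several and 9160 none, and 34754 symbols were updated through the gene number. Gene order followed the RefSeq table of GRCm38.p6 and hairpin targets came from the labels. Each line received its own mean in limma 3.58.1 (R 4.3.3), with 12 residual and 2.58 prior degrees of freedom and Benjamini-Hochberg adjustment over all probe sets tested. Calls had an adjusted p under 0.05. The main effect averaged shSep15 minus control and shTR1/shSep15 minus shTR1, and the interaction subtracted the first from the second. The fits were tested on simulated data. Figures were drawn with matplotlib 3.10.9 (Python 3.11.15).

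Each gene was represented by the brightest of the probe sets that carry its symbol and no other. Named were both targets, genes that moved alike, the 3 other called genes with the largest main effect in each direction, called members of the 27 gene lists, the PCR genes of the study, and the 3 genes with the largest interaction in each direction. Other names were added after their values were seen. The comparison, the lists and these rules were chosen with earlier results of these data known. Alternatives changed the moderation, filter, scaling, covariates, model and arrays.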

Additional observations from a re-analysis of the deposited data

Results flagged for a closer look

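In the 33 named genes, 132 sets of 4 arrays were examined for an array far from the other 3 of its line. Of these sets 16 had one. Chance alone gives about 1 in 20 for independent sets. These sets are not independent, since the genes share arrays and many were named for large differences. Among genes called in the main effect the arrays apart were Myoz2 in shTR1 replicate 4 (6.097), Klf2 in control replicate 2 (10.969) and Dppa2 in shTR1/shSep15 replicate 4 (5.539). In shSep15 replicate 1 the interferon-related genes Usp18 (7.838), Gbp6 (3.319), Gbp7 (6.294) and Xaf1 (8.692) lay below the other 3 arrays of the line. In shTR1 replicate 4, whose Txnrd1 signal at the brightest probe set was that of control arrays, Gbp2b (11.017) and Gbp6 (6.798) lay above the others. Gbp2b was also apart in control replicate 2 (8.061), Gbp6 in shTR1/shSep15 replicate 2 (2.509), Tnc and Lrrn4cl in shTR1 replicate 1 (6.776 and 5.852), and Afp in shSep15 replicate 2 (2.71). Ccr1 was apart in control replicate 3 (4.906) and shTR1/shSep15 replicate 2 (6.163).

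For 14 named genes the effect of the Sep15 hairpin differed between cells without and with the TR1 hairpin by the limma interaction. The naming rules took in genes with the largest called interactions and called genes that did not move alike. The count of 14 is therefore no result about the named genes. Of all 45037 probe sets tested, 1282 were called in the interaction (2.85%). Among those of the 14 called in the main effect, the interaction was −3.032 for Tmem47 (adjusted p = 0.000906), −2.468 for Myoz2 (0.00606) and −1.155 for Bcar3 (0.0232). Their differences were 3.07, 2.59 and 1.40 without and 0.04, 0.12 and 0.24 with the TR1 hairpin. The interaction was 4.987 for Klf2 (0.00205), 5.926 for 2210016F16Rik (3.79e-05) and 4.835 for Dppa2 (0.0015), which were lower in shSep15 than in control. Dppa2 was also low in shTR1 (3.511) and shTR1/shSep15 arrays (3.938), against 8.146 in control. Klf2 in these lines (6.749 and 7.157) lay between control (9.124) and shSep15 (4.545). Of those not called in the main effect, the interaction was positive for Afp (7.949, adjusted p = 0.000906), Arhgef5 (9.604, 1.19e-11) and Lrrn4cl (6.778, 0.000582). It was negative for Usp18 (−10.705, adjusted p = 0.00504), Gbp7 (−7.322, 0.0301), Xaf1 (−7.17, 0.00944), Ccnb1ip1 (−4.334, 0.00794) and Casp6 (−1.521, 0.0317). Without shTR1 replicates 2 and 4 these interactions kept their signs, and those of Bcar3 (adjusted p = 0.0987), Casp6 (0.156) and Gbp7 (0.0577) no longer passed.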

How the results depend on the processing

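Selenof kept its call under every alternative run, between −3.786 and −3.608 with 1 array left out, and Txnrd1 ran from −0.914 to −0.46. The counts called in the main effect and moving alike (38 and 9) became 18 and 4 with the ordinary contrast, 16 and 4 among bright probe sets alone, 25 and 3 after median centring, 77 and 15 after further quantile normalization, 103 and 25 with the spike-in signal as covariate, 334 and 83 with array weights, and 117 and 31 without control replicate 2 and shTR1 replicates 2 and 4 together, which was chosen after seeing the data. An additive model gave 3 and 3, the Sep15 hairpin as the only factor 1 and 1, and a log2 difference of at least 1 gave 15 and 2. The ordinary contrast with no adjustment called 3024. A smaller difference of at least 0.8 of the larger left 4 moving alike, and an adjusted p under 0.05 in each background 1. Without the TR1 hairpin, 885 became 556 (ordinary contrast), 2616 (array weights) and 345 (8 arrays alone). With it, 33 became 9 (ordinary contrast), 18 (median centring), 73 (spike-in signal), 1084 (array weights) and 12 (without shTR1 replicates 2 and 4). The interaction count of 1282 became 744, 4462 (array weights) and 519 (without shTR1 replicates 2 and 4). List members called were 1 with the ordinary contrast and 12 with array weights, and 1 neighbour of Selenof was called with array weights and 1 without shTR1 replicates 2 and 4. Same-numbered arrays deviated from their line means with correlations of −0.528 to 0.466, so that they share only a number, and the replicate block gave 16 called, 2 alike, 15 with the TR1 hairpin and 1 list member. With 1 array left out the ranges were 17 to 97 called, 3 to 25 alike, 437 to 1176 without and 5 to 250 with the TR1 hairpin, 656 to 2340 for the interaction, 1 to 5 list members and 0 neighbours. Without the TR1 hairpin the count moved by over 1.5 times without control 4 (503) or shSep15 1 (561), 3 (437) or 4 (437). With it, the count moved without control 2 (176), shTR1 1 (250) or 4 (11), shSep15 4 (18) or shTR1/shSep15 1 (11), 2 (8), 3 (9) or 4 (5). The interaction count moved without control 2 (2340) or 4 (745), shSep15 3 (656) or 4 (660), shTR1 4 (823) or shTR1/shSep15 1 (791), 2 (734) or 4 (833). For the main effect the ranges rested most on control 2 (97 without it), shTR1 1 (70), shTR1/shSep15 1 (17), 3 (20) and 4 (23), shSep15 3 (20) and 4 (23) and control 3 (25). For likeness they rested on control 2 (25), 4 (15) and 3 (3), shTR1/shSep15 1 (3), 3 (4) and 4 (5), shSep15 3 (3), 1 and 4 (4 each) and 2 (5), and shTR1 4 (5). Signs turned only for genes near 0 and not called. These were Gpx2 (−0.111), Nfe2l2 (0.005) and Speg (0.033) with array weights, and Gpx1 (−0.043) and Gpx2 (−0.016) without shTR1 replicates 2 and 4. With 1 array left out the values spanned 0 for Gpx1 (−0.037 to 0.078), Gpx2 (−0.079 to 0.071), Ifng (−0.081 to 0.001), Lrrn4cl (−0.549 to 0.012), Casp12 (−0.035 to 0.244), Speg (−0.266 to 0.106) and Xaf1 (−0.08 to 0.736). The cause of these changes was not tested. With 4 lines, and arrays whose independence no source gives, the number of lines limits what the p-values can tell about the hairpin.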
